A study of Arabidopsis thaliana with 18 samples.

Results

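Developing Arabidopsis thaliana seeds of 2 accessions, Col-0 and C24, were compared in how their transcripts changed from 8-9 to 10-11 days after flower opening. The quantity tested for each probe set was the interaction, that is the log2 change in C24 (10-11 minus 8-9 days) minus the log2 change in Col-0 over the same step. It was estimated from 12 of the 18 arrays of the series, 3 in each of 4 groups: Col-0 at 8-9 days, Col-0 at 10-11 days, C24 at 8-9 days and C24 at 10-11 days. The SEs and p-values took the spread from all 18 arrays, and the 12 arrays fitted alone called 1623 probe sets in place of 1604. All 19755 probe sets other than the controls were tested, with limma and Benjamini-Hochberg adjusted p-values at a threshold of 0.05. Both accessions are natural inbred lines, grown in the same long-day conditions, and the labels name no transgene or treatment. Each array came from a pool of seeds dissected from 48 siliques, 8 from each of 6 plants. The plants numbered 6 per accession in each of 2 experiments, so that pools and stages shared plants, and what a p-value weighs here is how far such pools vary. Levels are log2 values of ATH1 arrays, which carry short probes against known transcripts, and each error of a difference is the model's standard error (SE, n = 3 arrays per group).

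In Arabidopsis the interval covered by these stages lies between the growth of the embryo by cell division and the filling of its cells with storage protein and oil. During it the seed coat ends its own differentiation, in which one cell layer makes proanthocyanidins and another makes mucilage. A probe set with a positive interaction gained more, or lost less, in C24 than in Col-0, and one with a negative interaction gained less or lost more in C24. Whole seeds were measured, so fewer cells of a type and less RNA per cell cannot be told apart.

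Across probe sets the correlation between replicate arrays was 0.994 to 0.997, while that between groups was 0.905 to 0.985. Stage was the leading source of variance, with 73.2% on the first principal component. On it, the mean position moved from -81.0 to 7.1 in Col-0, a step of 88.2, and from -71.7 to 25.2 in C24, a step of 96.9. C24 thus lay ahead of Col-0 on this axis at both stages, and the Col-0 arrays at 10-11 days were the most scattered, from -1.1 to 15.7. The difference between the 3′ and 5′ probe sets of the controls, a sign of RNA quality, had an interaction of 0.21 and 0.19 for the actin pairs and of -0.04 and 0.02 for the GAPDH pairs. The part of these differences in the results below was not tested. Among 4 genes of the silique wall and valve margin ALC alone had a named probe set, with a group mean of 6.26 to 6.37 at these stages and an interaction of 0.06 ± 0.19.

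Of the 19755 probe sets 1604 passed the threshold, which is 8.12%. The interaction was positive for 766 of them (3.88% of those tested) and negative for 838 (4.24%). Its median size among these was 0.68 on the log2 scale, and 349 reached 1 or more, 169 positive and 180 negative. Over all probe sets the median interaction was 0.03, with a median SE of 0.14. The split between the signs depended on the scaling, since with each array centred on its median, which put the median of all probe sets at 0.07, the counts were 927 positive and 681 negative. With replicate 1 of Col-0 at 10-11 days left out, the counts were 549 and 546.

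The called probe sets were sorted by the step calls of each accession, and in 929 of the 1604 (57.9%) C24 moved further than Col-0. By size alone, with or without a call, the step was larger in C24 for 57.8% of all probe sets, a share near that. In 253 of the 929 the transcript rose in both accessions and more in C24, and in 230 its step passed, as a rise, in C24 alone. In 205 it fell in both and more in C24, and in 241 it fell with a call in C24 alone. Col-0 moved further in 560 (34.9%), of which 152 rose in both, 177 rose with a call in Col-0 alone, 111 fell in both and 120 fell with a call in Col-0 alone. In the remaining groups the directions were opposite, with 50 probe sets that fell in Col-0 and rose in C24 and 63 that rose in Col-0 and fell in C24, and 2 had a call for neither step. These counts describe the same arrays as the interaction. For comparison, 43.3% of all probe sets passed for the step in Col-0 and 50.0% for the step in C24. With replicate 1 of Col-0 at 10-11 days left out, C24 moved further in 618 and Col-0 in 393. The same removal left 167 that rose in both and more in C24, 111 that fell in both and more in C24, and 112 that rose with a call in Col-0 alone. The count of 205 was also 134 without replicate 1 or without replicate 2 of Col-0 at 8-9 days, and it was 122 when replicate 2 of Col-0 at 10-11 days was left out. The count of 241 was 136 without replicate 1 of C24 at 8-9 days.

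**Figure D1:**
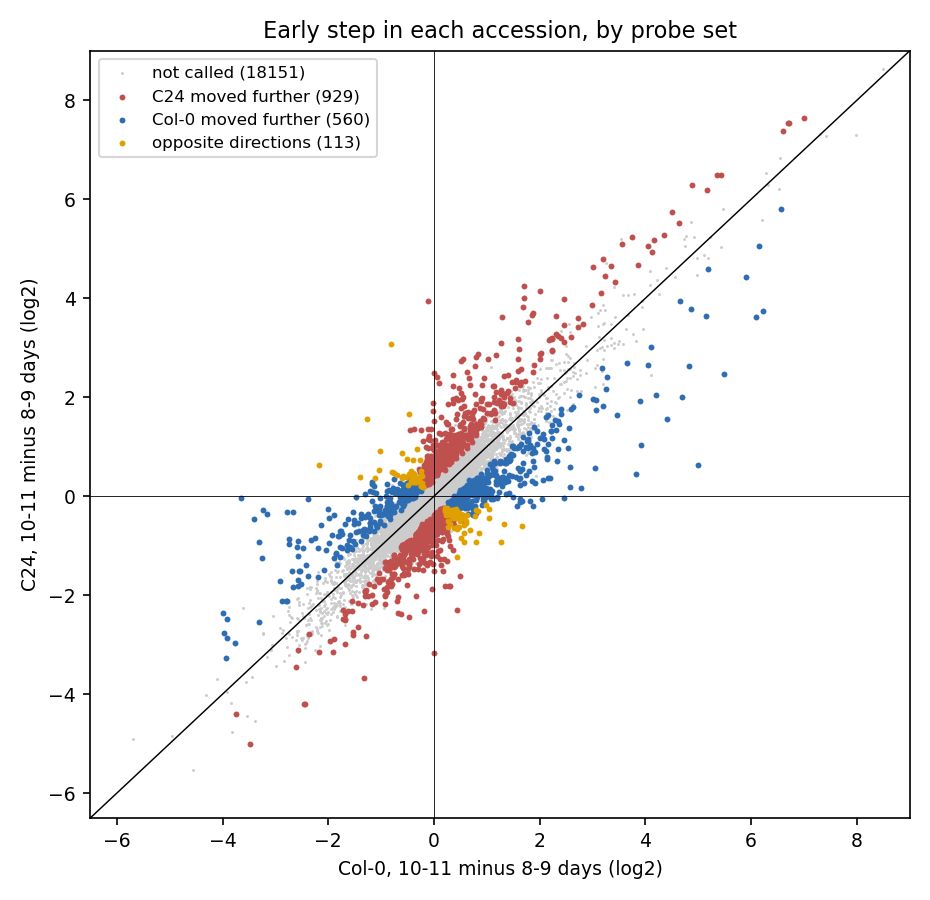
Each point is a probe set, with its log2 change from 8-9 to 10-11 days in Col-0 on the horizontal axis and in C24 on the vertical axis (means of 3 arrays per group). Coloured points passed the threshold for the interaction: 929 lie farther from 0 in C24, 560 farther from 0 in Col-0 and 113 have opposite called directions; the diagonal marks equal change, and the 2 called probe sets with neither step called are not drawn.

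**Figure D2:**
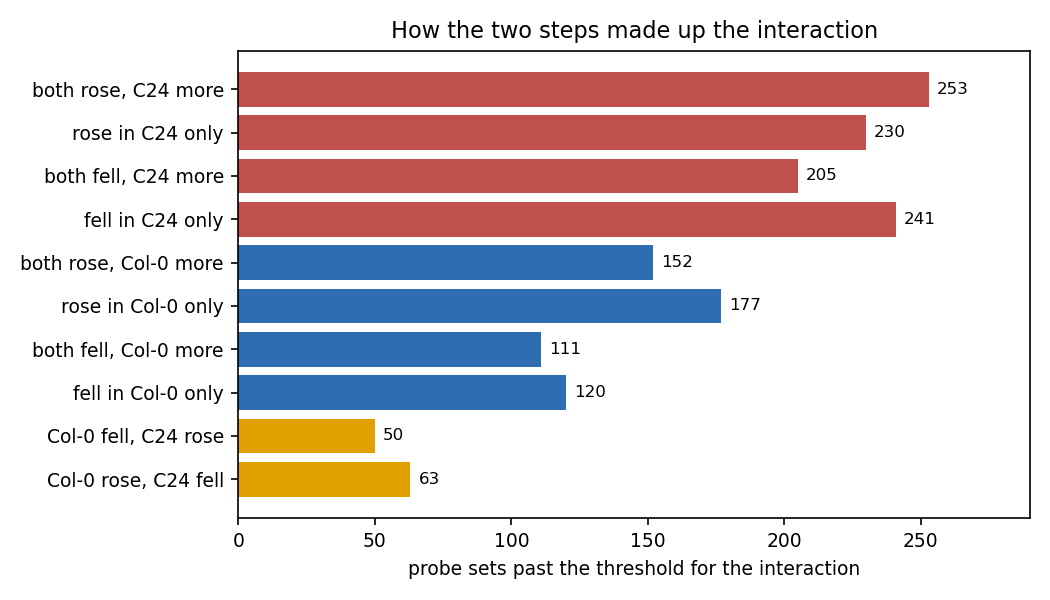
Bars give the number of called probe sets (horizontal axis) by how the steps of the accessions made up the interaction. The longest bar is the 253 probe sets that rose in both accessions and more in C24; "only" means that the other accession's step did not pass the threshold.

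Some positive interactions came from transcripts that rose in C24 seeds between the stages, with a smaller rise or no called change in Col-0. Below the top named gene, IRX15, those ranked from AT1G11590 (3.62) to AT3G23450 (2.39) instead fell with a call in Col-0 and are described later. IRX15, a protein needed for normal xylan in secondary cell walls, had the largest positive interaction among named genes, 4.05 ± 0.17 (adjusted p = 7.37e-11, limma). Its arrays read 3.78, 3.91 and 3.82 in Col-0 at 8-9 days and 3.65, 3.66 and 3.89 in Col-0 at 10-11 days. In C24 they read 3.80, 3.86 and 3.88 at 8-9 days and 7.71, 8.08 and 7.59 at 10-11 days. The C24 arrays at 10-11 days therefore stood far above the 9 others, which overlapped and lay below 4.41, the lowest of the arrays' 25th percentiles. The rise in C24 was 3.95 ± 0.12, against a change of -0.11 in Col-0 that did not pass. The related gene IRX15-L, named here after its values were seen, rose in both accessions, by 1.35 in C24 against 0.78 in Col-0, with an interaction of 0.57 ± 0.15 (adjusted p = 0.021, limma).

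AT1G49750, which encodes a leucine-rich repeat protein, rose by 2.45 ± 0.17 in C24, and its change of 0.36 in Col-0 did not pass. Its C24 arrays read 4.79, 4.61 and 4.69 at 8-9 days and 7.60, 6.84 and 6.99 at 10-11 days, while those of Col-0 read 4.66, 4.77 and 4.93 and then 5.17, 5.11 and 5.15. The later C24 arrays lay above all of the rest, and the interaction was 2.09 ± 0.24 (adjusted p = 1.57e-05, limma). AT3G48450 rose in both accessions, by 2.77 in C24 against 0.55 in Col-0, with an interaction of 2.22 ± 0.15. Its arrays at 10-11 days read 4.96, 4.65 and 5.10 in Col-0, against 6.74, 6.87 and 7.02 in C24, without overlap.

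For 3 further genes the rise had begun in both accessions and was larger in C24. AT1G14930 encodes a protein of the major latex protein family, AT4G19720 a protein of the chitinase-like glycosyl hydrolase family 18, and AT2G18480 a putative polyol or sugar carrier. The rise of AT1G14930 was 1.70 ± 0.19 in Col-0 and 4.01 ± 0.19 in C24 (interaction 2.31 ± 0.26). At 10-11 days its arrays read 5.99, 5.75 and 6.55 in Col-0, against 7.67, 8.27 and 8.25 in C24. AT4G19720 rose by 2.00 and 4.14, and AT2G18480 by 1.68 and 3.82, each with an interaction of 2.14. In all 3 genes the accessions did not differ with a call at 8-9 days, where the differences were -0.35, 0.05 and -0.17, and C24 lay 1.97, 2.19 and 1.97 higher at 10-11 days. In all 3 replicate 2 was also the lowest of the Col-0 arrays at 10-11 days, as it was on the first principal component. Without it the interactions were 2.14, 1.74 and 1.85.

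**Figure D3:**
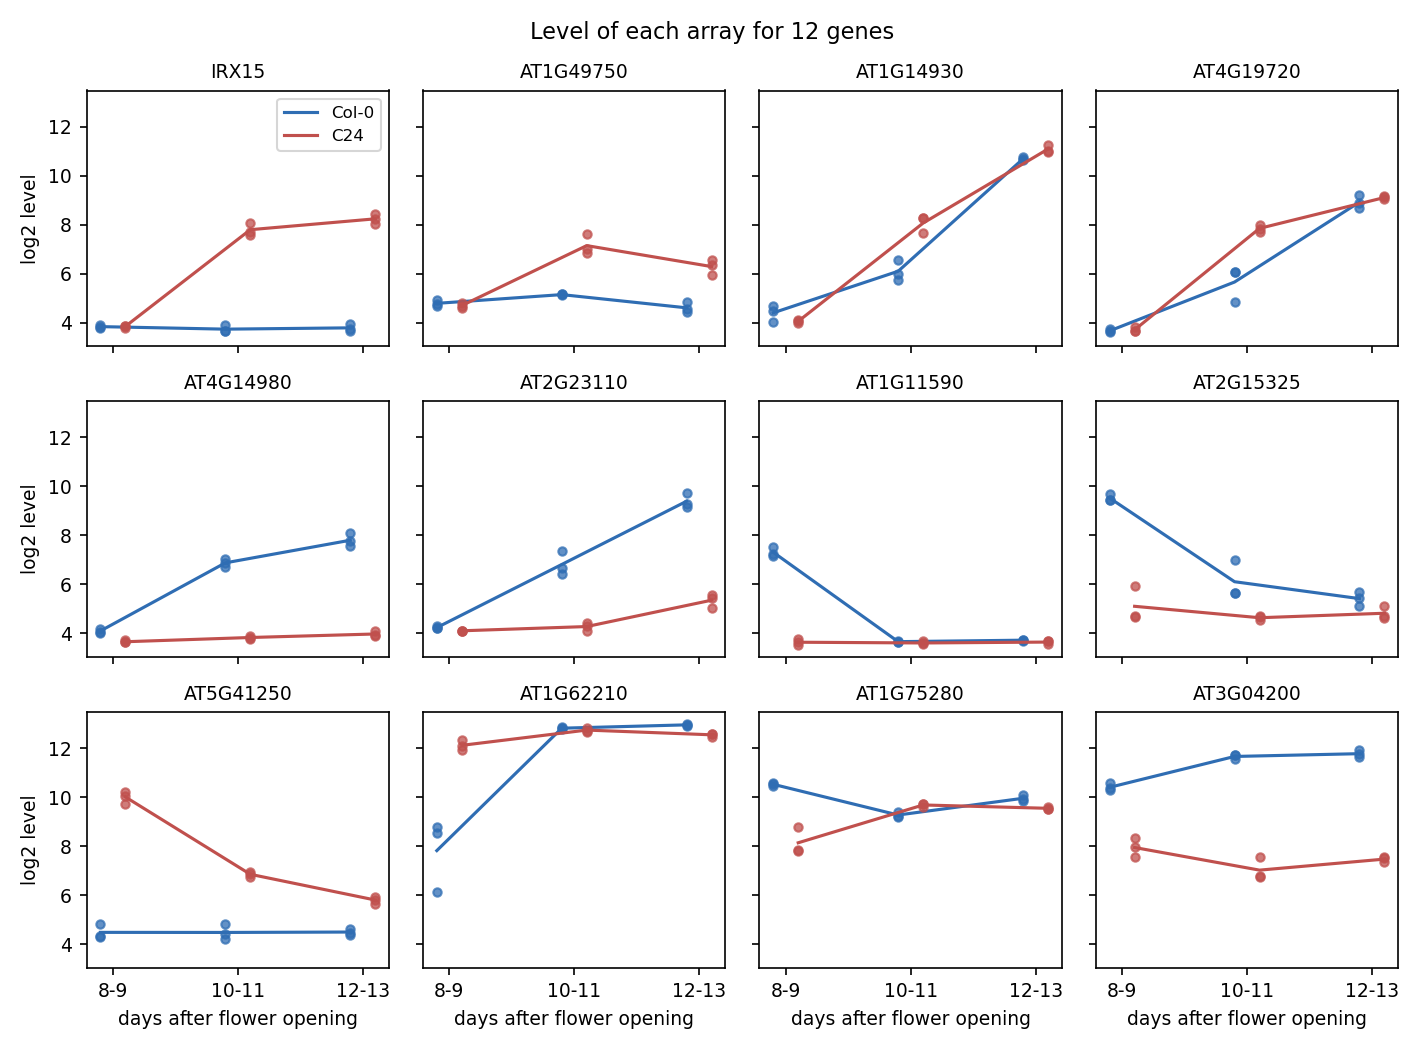
Each panel gives the log2 level (vertical axis) of 1 gene at 8-9, 10-11 and 12-13 days after flower opening, with a point for each array and a line through the means of 3 arrays, blue for Col-0 and red for C24. IRX15 departs from 3.85 to 7.79 in C24 alone, AT1G11590 falls from 7.31 to 3.66 in Col-0 alone, and AT1G62210 in C24 stands at 12.12 already at 8-9 days.

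The converse, a rise in Col-0 that was missing or smaller in C24, was seen for AT4G14980, AT2G23110 and CYP78A9. AT4G14980 rose by 2.78 ± 0.11 in Col-0, against 0.17 in C24, which did not pass (interaction -2.60 ± 0.16, adjusted p = 1.24e-08, limma). Its Col-0 arrays read 4.07, 4.03 and 4.20 at 8-9 days and 6.89, 6.72 and 7.03 at 10-11 days, whereas the 6 C24 arrays lay between 3.63 and 3.89. AT2G23110 encodes a small protein of the late embryogenesis abundant (LEA) class, which protects drying cells. It rose by 2.58 ± 0.19 in Col-0, to 6.41, 6.66 and 7.37, and stayed at 4.10, 4.44 and 4.30 in C24 (change 0.18, not passed). Its interaction was -2.40 ± 0.27 (adjusted p = 1.24e-05, limma).

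CYP78A9 is a cytochrome P450 of a family known to promote the growth of fruits and seeds. Its rise was 6.23 ± 0.15 in Col-0 and 3.74 ± 0.15 in C24 (interaction -2.49 ± 0.21, adjusted p = 4.96e-07, limma). Its arrays read 4.44, 4.65 and 4.33 in Col-0, against 5.02, 5.04 and 5.14 in C24 at 8-9 days. At 10-11 days they read 10.77, 10.26 and 11.08 in Col-0, against 8.58, 8.87 and 8.97 in C24. C24 was thus the higher accession at the earlier stage, by 0.59, and the lower at the later, with a difference of -1.90.

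Another set of genes with negative interactions was already higher in C24 at 8-9 days, and no difference was called at 10-11 days. AT1G62210 had the largest interaction of all called probe sets, -4.37 ± 0.58 (adjusted p = 9.14e-05, limma). Its arrays read 8.54, 6.13 and 8.79 in Col-0, against 12.08, 12.33 and 11.94 in C24 at 8-9 days. At 10-11 days they read 12.77, 12.82 and 12.86 in Col-0, against 12.67, 12.72 and 12.83 in C24. Col-0 rose by 5.00 ± 0.41, the change of 0.62 in C24 did not pass, and the accessions overlapped at the later stage.

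A higher start in C24, followed by a smaller rise, was also found for AT1G14950, a major latex protein family gene, AT1G05450, a gene of the lipid transfer protein class, and AT2G40460, a gene of the nitrate and peptide transporter family. Their rises were 6.09, 4.82 and 4.20 in Col-0 but 3.62, 2.62 and 2.04 in C24, with interactions of -2.47 ± 0.42, -2.20 ± 0.44 and -2.15 ± 0.36. At 8-9 days C24 was higher by 2.69, 2.55 and 2.06, and at 10-11 days the differences of 0.22, 0.35 and -0.09 did not pass. In these genes, as in AT1G62210, replicate 2 of Col-0 at 8-9 days, which was also the lowest array on the first principal component (-83.7), lay lowest, for AT1G14950 at 5.68 against 7.28 and 7.27. Without that array the interactions were -3.53 for AT1G62210, -1.94 for AT1G14950, -1.64 for AT1G05450 and -1.68 for AT2G40460, and all remained past the threshold. The levels at 10-11 days, from 12.72 to 13.12 for AT1G14950 and from 12.67 to 12.86 for AT1G62210, were close to the highest values on the arrays (14.09 to 14.33), where rises can be understated.

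Transcripts that were higher in Col-0 at 8-9 days and fell there by 10-11 days gave positive interactions. AT1G11590, of the pectin methylesterase family that modifies wall pectin, read 7.54, 7.23 and 7.17 in Col-0 at 8-9 days and between 3.51 and 3.76 on the 9 other arrays. Its interaction was 3.62 ± 0.13 (adjusted p = 7.75e-12, limma), from a fall in Col-0 of 3.65 ± 0.09 (step -3.65) and a change of -0.03 in C24 that did not pass. AT2G15325, of the lipid transfer protein class, read 9.46, 9.45 and 9.67 in Col-0 at 8-9 days, then 7.01, 5.66 and 5.66, and 4.53 to 5.93 in C24. Its step was -3.41 ± 0.32 in Col-0 and -0.46 in C24, the latter not passed, and its interaction was 2.95 ± 0.45. AT2G43660 and AT3G23450 fell in both accessions, with steps of -3.16 and -3.31 in Col-0 and of -0.37 and -0.92 in C24. Their interactions were 2.79 ± 0.17 and 2.39 ± 0.30. At 10-11 days C24 was still lower with a call for AT2G15325 (-1.47) and AT2G43660 (-0.43). No difference was called at that stage for AT1G11590 or AT3G23450.

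The mirror image, early expression in C24 that then declined, was shown by AT5G41250 and AT1G62410. AT5G41250, an exostosin family glycosyltransferase, read 9.74, 10.06 and 10.23 in C24 at 8-9 days and 6.95, 6.74 and 6.87 at 10-11 days. The 6 Col-0 arrays lay between 4.20 and 4.84, below both C24 groups. The step was -3.16 ± 0.16 in C24 and 0.00 in Col-0 (interaction -3.15 ± 0.23, adjusted p = 9.26e-08, limma). AT1G62410, which encodes a protein with the MIF4G domain of translation factors, fell in C24 from 6.78, 6.81 and 6.67 to 4.20, 4.60 and 4.47, a step of -2.33 ± 0.12. Its 6 Col-0 arrays lay between 3.91 and 4.33, so that at 10-11 days the accessions overlapped (interaction -2.13 ± 0.17).

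AT1G47400, a small peptide of the IRON MAN family that acts in the response to iron deficiency, fell in both accessions and more in C24. The steps were -1.33 ± 0.39 in Col-0 and -3.68 ± 0.39 in C24, and the interaction was -2.35 ± 0.55 (adjusted p = 0.0117, limma). Its arrays read 8.05, 8.69 and 7.53 in Col-0, against 9.22, 8.30 and 9.01 in C24 at 8-9 days, which overlapped, and 6.58, 7.14 and 6.55 against 5.19, 4.47 and 5.83 at 10-11 days, which did not.

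Opposite called directions were found for 48 of the 691 single-gene probe sets eligible for naming, beside 113 of all 1604 called probe sets (7.04%). AT1G75280, an isoflavone reductase-like protein, fell in Col-0 and rose in C24, with steps of -1.26 ± 0.17 and 1.55 ± 0.17 and an interaction of 2.80 ± 0.24 (adjusted p = 7.49e-07, limma). Its Col-0 arrays read 10.54, 10.58 and 10.46 and then 9.19, 9.22 and 9.41, and its C24 arrays 8.78, 7.84 and 7.80 and then 9.73, 9.72 and 9.60. C24 was the lower accession at 8-9 days (difference -2.39), and the difference of 0.41 at 10-11 days did not pass. AT3G43960, a papain-like cysteine protease, had steps of -2.18 ± 0.15 in Col-0 and 0.62 ± 0.15 in C24. It was the lower of the accessions in C24 at 8-9 days (-1.63) and the higher at 10-11 days (1.17), each with a call (interaction 2.80 ± 0.21). AT4G16400 and AT4G13860 followed the same directions, with interactions of 1.92 ± 0.22 and 1.56 ± 0.23.

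Among genes that rose in Col-0 and fell in C24, AT3G04200, a germin-like protein, had steps of 1.26 ± 0.19 and -0.92 ± 0.19 and an interaction of -2.18 ± 0.26 (adjusted p = 2.93e-05, limma). Its Col-0 arrays read 10.36, 10.29 and 10.56 and then 11.54, 11.71 and 11.74, and its C24 arrays 8.33, 7.96 and 7.55 and then 6.74, 6.79 and 7.54. Col-0 was the higher accession on every array, and the difference widened from -2.46 to -4.64. AT3G27220 (interaction -2.26 ± 0.32) crossed instead, from 1.55 higher in C24 to -0.71. AT2G03980, a GDSL-type esterase, had steps of 0.80 in Col-0 and -0.92 in C24, and the higher level in C24 narrowed from 3.38 to 1.66. AT2G05540, a glycine-rich protein, had steps of 0.44 and -1.23, and a difference of -1.76 opened at 10-11 days. Of the 28 genes described so far by their rank, 10 had a mean below 4.41 in at least 1 of the 4 groups. The files hold no detection measure, so such levels are not shown to lie above background and the differences against them can be understated.

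Of 18 loci fixed for the flavonoids of the seed coat only 3 had a named probe set, and those 3 had interactions above 0. Of these 3 list members 2 had a positive interaction, beside 3.88% of all probe sets, and none a negative one, beside 4.24%. Their median was 0.62, beside 0.03 for all probe sets. DFR, which makes leucoanthocyanidins, read 10.83, 10.95 and 10.83 in Col-0, against 9.83, 9.99 and 10.24 in C24 at 8-9 days. At 10-11 days it read 8.66, 8.82 and 8.53 in Col-0, against 8.32, 8.51 and 8.34 in C24, where the C24 arrays lay just below those of Col-0. Its steps were -2.20 ± 0.10 and -1.63 ± 0.10 (interaction 0.57 ± 0.14, adjusted p = 0.0154, limma). UF3GT, a glycosyltransferase acting on anthocyanins, fell in Col-0 (-0.70) and rose in C24 (0.43), with an interaction of 1.12 ± 0.20. BAN, the anthocyanidin reductase of proanthocyanidin synthesis, had steps of -3.04 and -2.42, and its interaction of 0.62 ± 0.23 did not pass (adjusted p = 0.112, limma).

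Of 4 named mucilage genes 1 had a positive and 1 a negative interaction (3.88% and 4.24% of all probe sets). AT3G50990, a seed coat peroxidase needed for mucilage release, read 8.11, 8.53 and 8.08 in Col-0, against 6.14, 6.33 and 7.06 in C24 at 8-9 days. Its steps were -2.91 ± 0.17 and -1.71 ± 0.17 (interaction 1.20 ± 0.25, adjusted p = 0.00458, limma). AT2G22900, a galactosyltransferase of mucilage glucomannan, fell more in C24, with steps of -0.30 and -0.85. ARA12, a subtilisin-like protease of the mucilage layer, fell in both accessions, with steps of -1.31 and -1.36, and its interaction of -0.05 ± 0.16 did not pass.

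In the list of wall loosening, chosen by the symbols of expansins, xyloglucan endotransglucosylases and pectin methylesterases, 1 of 35 probe sets was positive and 2 were negative, beside 3.88% and 4.24% of all probe sets. Genes of these families without such a symbol, AT1G11590 among them, are left out, so the counts do not cover the whole families. The list also holds PMEAMT, a methyltransferase of phosphoethanolamine that entered by its symbol. XTH16, an enzyme that cuts and rejoins xyloglucan, rose by 1.81 ± 0.23 in Col-0, from 5.09, 4.93 and 5.09 to 6.81, 6.89 and 6.85. In C24 its arrays read 6.41, 6.30 and 5.56 and then 5.94, 6.47 and 5.58, which overlapped (interaction -1.91 ± 0.32, adjusted p = 0.000986, limma). EXPA9, an expansin, had steps of 0.95 in Col-0 and, not passed, -0.09 in C24 (interaction -1.05 ± 0.22). AT4G02300, a pectin methylesterase, had an interaction of 0.60 ± 0.17. Among 10 genes of cellulose-like and xylan synthesis, IRX15 was positive and CSLC04, a synthase of the xyloglucan backbone, was negative. That list does not hold IRX15-L, which also had a positive interaction (0.57). CSLC04 fell in C24 from 6.46, 6.62 and 6.59 to 5.77, 5.65 and 5.61, whereas the 6 Col-0 arrays lay between 6.69 and 6.85 (interaction -0.86 ± 0.14).

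UDP-glycosyltransferases, which attach sugars to hormones, flavonoids and other small molecules, held 8 calls among 50 probe sets. Positive interactions numbered 6 of 50, beside 3.88% of all probe sets, and negative ones 2 of 50, beside 4.24%, with a median of 0.17. UGT85A7 read 5.50 to 5.96 on the 6 Col-0 arrays and 5.53 to 5.72 in C24 at 8-9 days, and 7.17, 7.38 and 7.10 in C24 at 10-11 days. Its rise in C24 was 1.60 ± 0.10 (interaction 1.46 ± 0.15, adjusted p = 4.28e-06, limma). UGT87A2 had a rise in Col-0 of 1.07 ± 0.17 that was not matched in C24 (-0.05, not passed; interaction -1.12 ± 0.24). UGT88A1 fell in both, with steps of -1.90 and -2.88 (interaction -0.99 ± 0.25). Beside UF3GT, the other 4 positive members had interactions from 0.52 (GT72B1) to 0.75 (UGT84A3, a glycosyltransferase of hydroxycinnamic acids).

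AGL19, a MADS-box factor that promotes flowering, was the single call among 37 AGAMOUS-like genes, beside 8.12% of all probe sets called in either direction (interaction 1.27 ± 0.13, adjusted p = 7.06e-06, limma). It lay between 3.75 and 3.94 on the 6 Col-0 arrays and rose in C24 from 4.64, 4.52 and 4.81 to 5.90, 5.62 and 5.89. Of 13 glutathione transferases GSTU26 was positive (1.57 ± 0.15), with a rise of 1.33 in C24 and a change of -0.24 in Col-0 that did not pass, and GSTU18 was negative (-0.43 ± 0.12). Of 22 named cytochrome P450 probe sets, most of them of the CYP71B group, CYP78A9 was negative and CYP71B34 positive (0.93 ± 0.17). Thus 2 calls in each of these lists stand beside the same 8.12%.

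AT2G25450, the dioxygenase that hydroxylates butenyl glucosinolate, was the single call among 5 glucosinolate genes (8.12% of all probe sets were called). It fell from 11.80, 11.60 and 11.71 to 11.00, 11.17 and 11.12 in Col-0 and from 10.73, 10.52 and 10.27 to 8.98, 8.68 and 9.06 in C24 (interaction -0.99 ± 0.18). SCPL27, a serine carboxypeptidase-like protein and 1 of 5, fell in both accessions and less in C24, with steps of -2.19 and -1.05 (1.14 ± 0.18). IAA30, an auxin response regulator and 1 of 16, rose more in Col-0 (-0.40 ± 0.12).

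No named gene of the storage protein, LEA, oil body and maturation lists passed for the interaction, beside 8.12% of all probe sets. With so few genes named, that share would give few calls, so their absence is not read as a result about these lists. These lists could be read only in part. Named probe sets numbered 5 for 13 storage protein loci, 2 for 7 oil body loci and 2 for 15 maturation loci. All 5 named storage protein genes rose in each accession (beside 19.9% and 24.0% of all probe sets). Their estimates were all negative, from -1.67 to -0.13, with a median of -0.36. The lowest belonged to AT1G03890, a cruciferin-like protein, at -1.67 ± 0.51 (adjusted p = 0.0543, limma), and its levels at 10-11 days, 13.40 and 13.55, were near the array maxima. Of 18 LEA genes in the list, which does not hold AT2G23110, 11 rose in Col-0 and 10 in C24, and 1 fell in each (interactions from -0.93 to 0.33, median 0.01). The maturation factors BZIP53 and EEL had interactions of -0.39 and -0.17, and the oil body genes OLEO3 and AT3G01570 of 0.04 and -0.16. EEL rose in both accessions, BZIP53 and AT3G01570 passed as a rise in Col-0 alone, and OLEO3 passed in neither.

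Of 6 genes of fatty acid synthesis 2 had negative interactions, beside 4.24% of all probe sets. FATB, the thioesterase that releases saturated fatty acids, rose by 0.55 ± 0.08 in Col-0, from 9.22, 9.00 and 9.25 to 9.70, 9.69 and 9.73, against 0.07 in C24, which did not pass (interaction -0.47 ± 0.11, adjusted p = 0.0124, limma). AT4G13050, an acyl-ACP thioesterase as well, fell in both accessions and more in C24, with steps of -0.30 and -0.73.

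Of 15 genes of mitosis and DNA replication 11 fell in Col-0 and 13 in C24, beside 23.3% and 26.0% of all probe sets, and 1 rose in each. The size of the step was the larger in C24 for 13 of the 15, beside 57.8% of all probe sets, with a median interaction of -0.20, and no negative interaction passed. The Aurora kinase AUR1, which acts at mitosis, had steps of -2.40 and -2.83 and an interaction of -0.43 ± 0.19 (adjusted p = 0.201, limma). The single call among the 15, beside 8.12% of all probe sets called in either direction, was positive and belonged to cdc2cAt. This protein kinase of the CDC2 family entered the list by its symbol. Its rise was 1.12 ± 0.13 in Col-0 and 2.22 ± 0.13 in C24 (interaction 1.10 ± 0.19).

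Among 17 photosynthesis genes the falls numbered 12 in Col-0 and 13 in C24, beside 23.3% and 26.0% of all probe sets. CHLM, a methyltransferase of chlorophyll synthesis, was the single call and fell more in C24, with steps of -1.05 and -1.56 (interaction -0.51 ± 0.15, adjusted p = 0.0434, limma). Of 10 autophagy genes 9 rose in each accession, beside 19.9% and 24.0% of all probe sets, with a median interaction of 0.18 and a range from -0.09 to 0.39, none of which passed. No call was made among 16 sugar carriers of the list, which does not hold AT2G18480, nor among 3 endosperm genes, 2 starch enzymes, 3 genes of the heat shock list or 1 ribosomal protein gene. These counts, like those of the photosynthesis and autophagy genes, stand beside 8.12% of all probe sets called in either direction. The endosperm and starch lists fixed 10 and 22 loci, most of which had no named probe set. Of the genes named from the lists, AT2G22900, AT4G02300, AT4G13050, CHLM, GSTU18, IAA30 and UGT88A1 lost their calls when any of 4 to 9 of the 12 arrays was left out, and all but UGT88A1 also lost them in 1 to 3 settings that kept every array. Their signs did not change, and the adjusted p-values of the lost calls ran from 0.0505 for GSTU18 to 0.124 for IAA30 (limma).

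**Figure D4:**
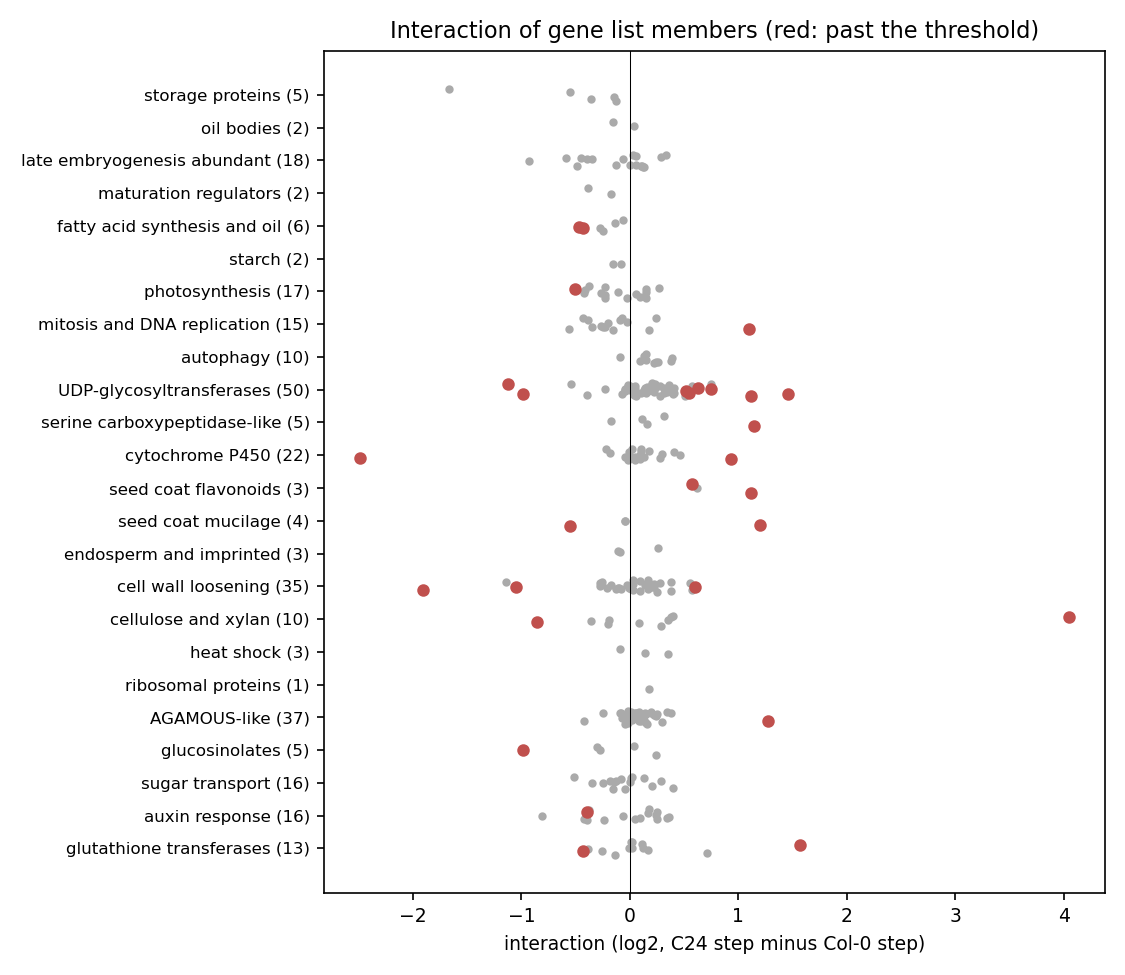
Each row is a gene list with its number of probe sets, and each point is a member at its interaction (horizontal axis, log2, C24 step minus Col-0 step). Red points passed the threshold. They number 15 positive and 13 negative of 298 probe sets (9.4%), a share near the 8.12% of all probe sets called. IRX15 lies farthest to the right at 4.05 and CYP78A9 farthest to the left at -2.49.

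Whether the accessions still differed after the step was read from the arrays at 12-13 days, whose levels do not enter the estimate of the interaction, though their spread enters its SE and p-value. Of all probe sets, C24 was higher with a call in 10.3% and lower in 9.22% at 8-9 days, and higher in 9.61% and lower in 9.54% at 10-11 days, and differed either way in 19.5%, 19.1% and 23.0% at the successive stages. A difference that was not called at 8-9 days had opened by 10-11 days in 336 probe sets with C24 higher and 287 with C24 lower. At 12-13 days C24 was higher with a call in 139 of the 336 (41.4%) and lower in 25 (7.44%), and in 172 (51.2%) no difference was called. Of the 287 C24 was lower in 130 (45.3%) and higher in 14 (4.88%). Over all probe sets C24 was higher at 12-13 days in 11.3% and lower in 11.7%. IRX15, AT1G49750, UGT85A7 and AT2G23110 were among those that still differed at 12-13 days, by 4.45, 1.68, 1.67 and -4.04. AT1G14930, AT4G19720 and AT2G18480 were among those with no call, with differences of 0.40, 0.19 and 0.43.

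A difference called at 8-9 days had closed by 10-11 days in 341 probe sets in which C24 had been higher and in 252 in which it had been lower. At 12-13 days no difference was called in 250 of the 341 (73.3%) and 169 of the 252 (67.1%), beside 77.0% of all probe sets. The earlier difference was called again in the same direction in 67 of the 341 (19.6%) and 67 of the 252 (26.6%), beside 11.3% and 11.7% of all. AT1G62210, AT1G14950, AT1G62410 and AT1G11590 were among those with no call, with differences at 12-13 days of -0.41, 0.07, 0.20 and -0.07. The absence of a call does not show that levels were equal. The sign of a called difference crossed in 62 probe sets from lower to higher in C24 and in 63 from higher to lower. Where C24 was higher at both stages and the gap widened (46 probe sets), it was higher again at 12-13 days in 44, and where it was lower and the gap widened (57), it was lower again in 52. GSTU26 and AGL19 belonged to the former, with differences at 12-13 days of 2.63 and 2.49, and AT3G04200, AT4G14980 and AT2G25450 to the latter, with -4.30, -3.83 and -2.15.

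**Figure D5:**
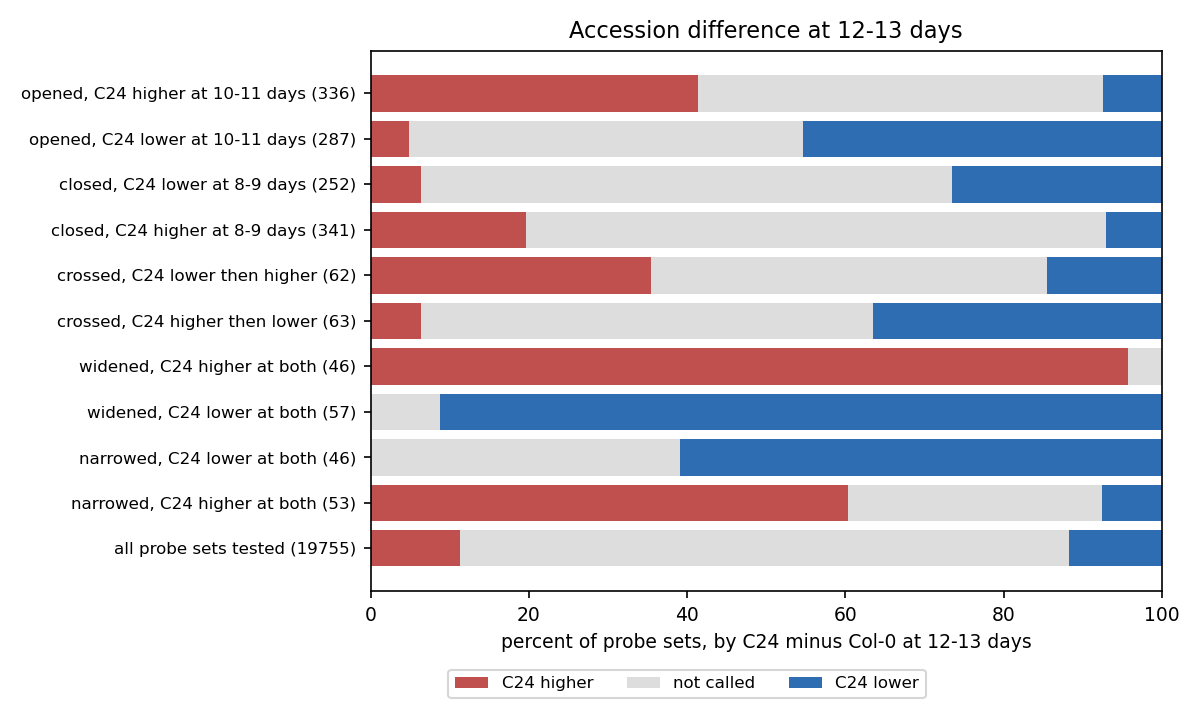
Bars divide the called probe sets of each pattern (number in parentheses) by the accession difference at 12-13 days, in percent (horizontal axis): C24 higher with a call in red, not called in grey, C24 lower with a call in blue. Differences that opened at 10-11 days were still called in the same direction in 41.4% and 45.3%, and the bottom bar gives all 19755 probe sets.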

How the data were processed

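Seeds of both accessions were measured on 18 ATH1 arrays, 3 for each of 6 groups. The deposited values are log2 levels per probe set. Per the labels, the authors kept probes identical in the Col-0 and C24 genomes and matching TAIR10 gene models, with 3 or more probes per probe set. How background and normalization were handled, and with which software, was not given in the sources used here. From the 19766 probe sets 11 controls were left out. Each probe set was modelled by its 6 group means over the 18 arrays in limma 3.58.1 (R 4.3.3, lmFit and eBayes, 12 residual and 5.8 prior degrees of freedom), and p-values were adjusted by Benjamini-Hochberg over 19755 probe sets, with a threshold of 0.05.

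The platform annotation gave 1 gene for 11763 probe sets and several for 61, and 7931 were not listed there and are not named. Symbols were updated through RefSeq (TAIR10.1, 11718 matched). Genes were named by rule among called single-gene probe sets. Ranked genes needed a mean above 6.1, the median of the array medians, in at least 1 of the 4 groups of the early step. They were the 12 highest and 12 lowest interactions and the 4 highest and 4 lowest with opposite called steps. Up to 4 called members of each of 27 gene lists were added. Of these lists 3 (gibberellin, abscisic acid, lipid transfer proteins) had no named probe set. The limit of 6.1 was applied to the ranked genes and not to list members, of which 4 (UGT87A2, EXPA9, AT4G02300 and AGL19) had no mean above it in those 4 groups. The comparison, the rule and the lists were chosen with earlier results of these data known. In simulated data of 19755 probe sets the early-step interaction recovered 97% of 100 changes of 1 log2 unit and 100% of those of 2, with 8 false calls. Both sizes exceed the median of 0.68 among called probe sets, so the recovery of smaller changes was not tested. The simulated noise was independent between arrays, whereas the real pools shared plants. The small number of arrays limits the precision. Alternatives were the 12 arrays alone, quantile normalization, centring, a trended and robust prior, leaving out the dimmest 30% of probe sets, a replicate block and leaving out each array. A search of promoter motifs was not run, and no sequence is shown.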

Additional observations from a re-analysis of the deposited data

Results flagged for a closer look

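Each of the 50 named genes had steps that differed between the accessions by the interaction test of limma, and all were chosen because they passed it. Positive interactions among the 28 genes named by rank were 4.05 for IRX15, 3.62 for AT1G11590, 2.95 for AT2G15325, 2.80 for AT1G75280, 2.80 for AT3G43960, 2.79 for AT2G43660, 2.39 for AT3G23450, 2.31 for AT1G14930, 2.22 for AT3G48450, 2.14 for AT4G19720, 2.14 for AT2G18480, 2.09 for AT1G49750, 1.92 for AT4G16400 and 1.56 for AT4G13860. Negative interactions among them were -4.37 for AT1G62210, -3.15 for AT5G41250, -2.60 for AT4G14980, -2.49 for CYP78A9, -2.47 for AT1G14950, -2.40 for AT2G23110, -2.35 for AT1G47400, -2.26 for AT3G27220, -2.20 for AT1G05450, -2.18 for AT3G04200, -2.15 for AT2G40460, -2.13 for AT1G62410, -1.73 for AT2G03980 and -1.67 for AT2G05540. Among the genes named from the lists alone, the positive interactions were 1.57 for GSTU26, 1.46 for UGT85A7, 1.27 for AGL19, 1.20 for AT3G50990, 1.14 for SCPL27, 1.12 for UF3GT, 1.10 for cdc2cAt, 0.93 for CYP71B34, 0.60 for AT4G02300 and 0.57 for DFR. The negative ones were -1.91 for XTH16, -1.12 for UGT87A2, -1.05 for EXPA9, -0.99 for UGT88A1, -0.99 for AT2G25450, -0.86 for CSLC04, -0.55 for AT2G22900, -0.51 for CHLM, -0.47 for FATB, -0.43 for AT4G13050, -0.43 for GSTU18 and -0.40 for IAA30. Single outlying arrays within the groups of 3 were not tested.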

How the results depend on the processing

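No interaction of a named gene changed sign under any alternative, and all 28 genes named by rank passed in each. The median interaction over all probe sets, 0.03, was -0.01 without the dimmest 30%. Of all 50 named genes 43 passed in each, and the calls lost belong to AT2G22900, AT4G02300, AT4G13050, CHLM, GSTU18, IAA30 and UGT88A1. With all arrays kept, positive calls ran from 697 to 927 and negative calls from 681 to 852, and centring each array turned the balance, with 57.6% positive calls against 47.8%. Of the 1604 called probe sets, 1429 to 1496 were called again with the same sign in the planned settings that kept every array, and 1075 to 1394 with an array left out. Leaving out 1 array gave 549 to 777 positive and 546 to 923 negative interactions. It gave 167 to 258 that rose in both and more in C24, 111 to 189 that fell in both and more in C24, 136 to 266 that fell with a call in C24 alone, 112 to 219 that rose with a call in Col-0 alone, and 618 to 939 in which C24 moved further. Fewer arrays entered these fits. The replicate numbers did not pair the arrays: same-number arrays of different groups had correlated deviations of -0.175 to 0.171, over 0.1 in 4 of 18 pairs, and 3 of 12 arrays matched their own number best. With the replicate number as a block 745 were positive and 833 negative. Including the control probe sets, an alternative chosen after seeing the data, gave 766 and 838. Levels below 4.41 in a group touched 14.6% of the called probe sets, against 27.8% of all.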

Other observations

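The neighbouring genes AT1G14930, AT1G14940 and AT1G14950 of the major latex protein family (neighbours in TAIR10.1) had interactions of 2.31 ± 0.26, 0.93 ± 0.31 and -2.47 ± 0.42. AT1G14940 did not pass (adjusted p = 0.081, limma), and it had steps of 2.40 in Col-0 and 3.33 in C24. The family is closely related in sequence, so that probes could read more than 1 member. AT5G51490 and AT5G51500, also neighbours and chosen after their values were seen, had interactions of -1.48 and -1.75. Of 5189 measured pairs of neighbouring genes 33 had both genes called, 20 with the same sign and 13 with opposite signs. Neighbours of a called gene were called in 8.17% of cases, and all genes of these pairs in 7.79%.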
